A study of Mus musculus with 24 samples.

Results

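Adenosine is a nucleoside that cells release or form outside the membrane from ATP, and that signals through 4 G protein-coupled receptors. The receptor encoded by Adora1 lowers cyclic AMP, whereas those encoded by Adora2a and Adora2b, the A2 receptors, raise it. The ecto-enzyme CD73 (Nt5e) forms adenosine from AMP at the cell surface, the equilibrative transporter ENT1 (Slc29a1) carries it across the membrane, and adenosine kinase (Adk) removes it inside the cell by phosphorylation to AMP. In the brain, adenosine acts on cells of the oligodendrocyte lineage and is known to influence their differentiation, and ENT1 is a known site of action of ethanol. These 6 genes, of 55359 in the count table, were taken by name. They were chosen by their place in the pathway with earlier results of the same counts known. The list sets no threshold, and which measured values weighed in its choice is not recorded. The levels and changes below therefore describe the genes and are not independent support for them.

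Transcripts were counted by 3′ tag sequencing, which reads the 3′ end of each transcript, in 24 wells of primary mouse oligodendrocytes. All cells came from the cortex of C57BL6/J pups aged 5 to 7 days, were sorted magnetically with an antibody to the surface antigen O4, and were differentiated for 3 days mainly with the thyroid hormone triiodothyronine before 3 further days with or without ethanol. Experiment 1 had 6 wells at 30 mM ethanol and 6 control wells at 0 mM, and experiment 2 had 6 wells at 10 mM ethanol and 6 control wells at 0 mM, the experiments being also the labelled batches. Control plates stood in a separate incubator, so that an effect of ethanol and one of the incubator cannot be told apart, and dose and experiment coincide in the same way. The labels call the wells biological replicates without tying them to pups, so p-values measure the spread between wells, which may be partly technical.

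Total counts ranged from 1184609 to 1817028 per well, so that 3 counts, taken as the floor, stood for 1.65 to 2.53 CPM (the count of a gene per 1000000 counts of the well). Such floors and the count intervals below cover counting error only. The cultures were mixed. Each of the 10 mature oligodendrocyte markers was detected in every group, with a summed level of 4830 to 6025 CPM in control wells of experiment 2 and 4981 to 5636 CPM in those of experiment 1. The 8 astrocyte markers together reached 4032 to 5073 CPM in the controls of both experiments. The 10 microglia markers summed to 166 to 280 CPM in the controls of experiment 1 and to 2045 to 2479 CPM in those of experiment 2. Of the 8 endothelial markers, Cldn5 was at 0 in all groups except 10 mM.

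Adora1 was the most abundant of the 6 genes, and the A2 receptors were near or below the floor. Tags are counted per transcript end, so gene levels can be set side by side without a length correction, although tags are not equally efficient for every gene. In the controls of experiment 1 the mean levels were 91.8 CPM for Adora1, 70.4 for Adk, 21.1 for Slc29a1, 12.3 for Nt5e, 4.71 for Adora2b and 0.211 for Adora2a. The controls of experiment 2 had the same order, with 111.8, 62.8, 29.1, 14.9, 2.39 and 0.622 CPM. Neighbours in this order overlapped between wells of experiment 1 controls for Adora1 and Adk (80.6 to 105.7 against 53.0 to 85.5 CPM) and for Slc29a1 and Nt5e (11.7 to 31.5 against 9.07 to 16.0 CPM), and no such pair of these 4 genes overlapped in the controls of experiment 2 or at 10 mM. At 30 mM the ranges of Slc29a1 (11.5 to 17.7 CPM) and Nt5e (13.1 to 18.8 CPM) overlapped and their order was reversed, with means of 14.8 and 15.8 CPM. Adora1 made up 92.9% (median over 6 wells) of all counts of the 4 adenosine receptors in the controls of experiment 1 and 94.95% in those of experiment 2.

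**Figure D1:**
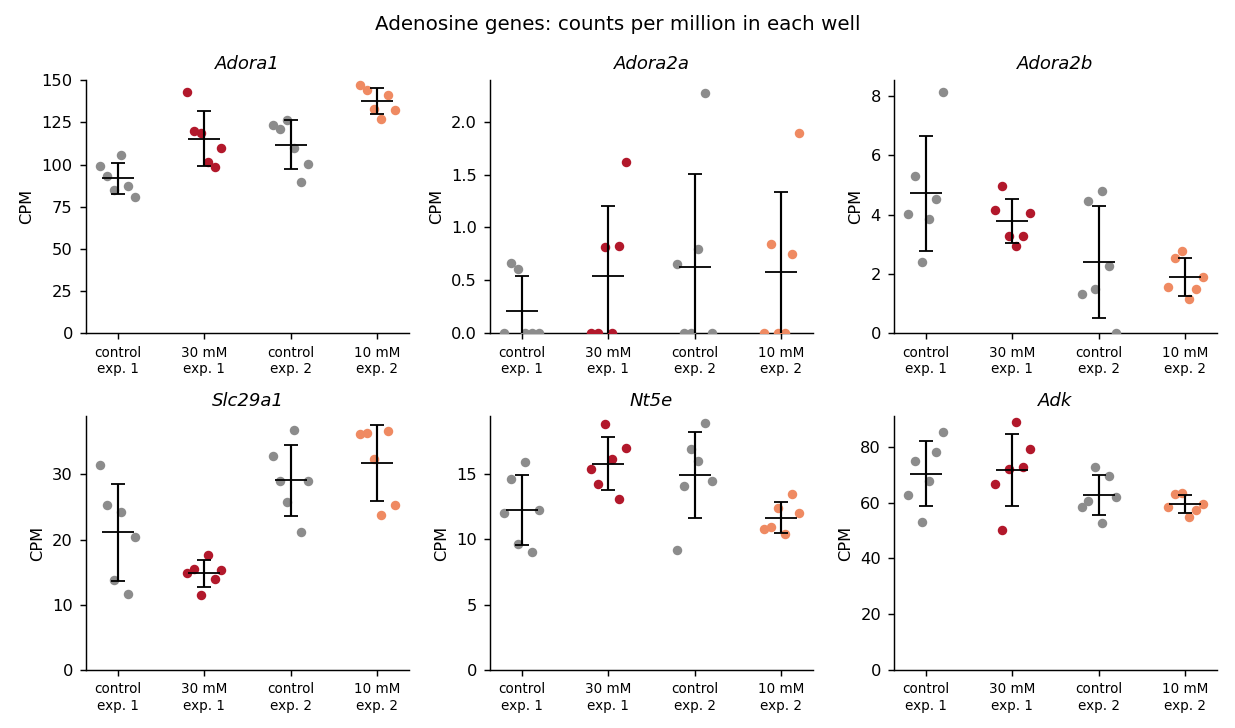
Levels in CPM (linear axes from 0) of the 6 adenosine genes, with 1 point per well, 6 wells per group, a bar at the mean and whiskers of 1 SD (cut at 0 where the SD exceeds the mean). Adora1 is higher in the ethanol wells of both experiments, Slc29a1 differs more between the experiments than with 10 mM ethanol, and Adora2a never exceeds 3 counts in a well.

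Adora1 (ENSMUSG00000042429), the receptor that lowers cyclic AMP, rose with ethanol in both experiments, by 25.9% at 30 mM and 22.7% at 10 mM. In experiment 1 the control wells had 80.6 CPM at the lowest, 90.2 at the median and 105.7 at the highest, and the wells at 30 mM had 98.5, 114 and 143 CPM. All 6 ethanol wells lay above the control median and 4 of 6 above the highest control, so that the groups overlapped. The log2 fold change was 0.33 (SE 0.0922, edgeR adjusted p = 0.0148). Replicate 1 at 30 mM had the highest value, 143 CPM, and the other 5 wells had 98.5 to 120 CPM. Without that well the log2 fold change was 0.25 and the gene did not pass (edgeR adjusted p = 0.0578).

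In experiment 2 the control wells had 89.4, 115 and 126 CPM of Adora1 (lowest, median, highest), and the wells at 10 mM had 127, 137 and 147 CPM. By these values all 6 ethanol wells lay above all 6 controls, but the gap was narrow: on library sizes scaled by TMM the lowest ethanol well had 129.0 CPM and the highest control 129.3 CPM, and the groups overlapped. The log2 fold change was 0.30 (SE 0.0766, edgeR adjusted p = 0.0416). The call was close to the threshold. A joint fit of all 24 wells gave a log2 fold change of 0.31 and an adjusted p of 0.152, limma voom gave 0.30 and 0.0515, and leaving out any of 6 wells (10 mM replicates 1, 2 and 5, and control replicates 4, 5 and 6) put the adjusted p between 0.0798 and 0.203, with log2 fold changes from 0.24 to 0.29.

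The change of Adora1 was not shown to differ between the doses by the interaction test over 24 wells, with a difference of log2 fold changes of 0.02 (SE 0.125, edgeR adjusted p = 0.944) and a 95% interval from -0.22 to 0.27. Between the experiments the level itself differed: the controls of experiment 1 were lower than those of experiment 2 by a log2 fold change of -0.23 with an SE of 0.0844 (edgeR adjusted p = 0.0192), a call lost with DESeq2 (adjusted p = 0.0502), without a low-count filter (adjusted p = 0.116), and without any of 5 wells (control replicates 3 and 6 of experiment 1 and 1, 2 and 3 of experiment 2, with values from -0.21 to -0.19). The mean at 30 mM, 115 CPM, was close to that of the untreated wells of experiment 2, 111.8 CPM.

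**Figure D2:**
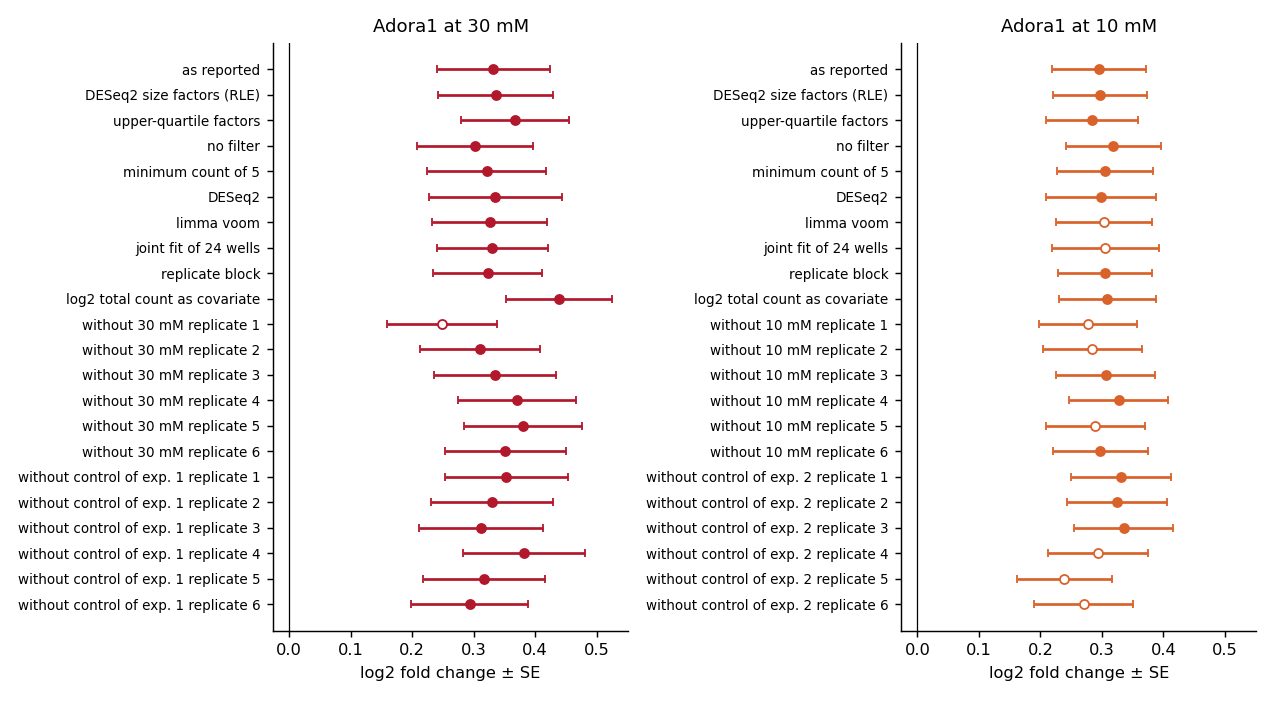
Log2 fold change of Adora1 at 30 mM (left) and 10 mM (right) as reported, under 9 other settings and without each well in turn; whiskers are 1 SE, filled points passed an adjusted p of 0.05 and open points did not. Every estimate lies between 0.24 and 0.44, and the open points are 1 of 22 at 30 mM and 8 of 22 at 10 mM.

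Of the 4 members tested, Adora1 was the 1 that passed at 30 mM and at 10 mM. Over all genes tested, 9.67% passed at 30 mM and 0.657% at 10 mM, so 1 of 4 members stood beside these shares. Rises made up 3.02% of all genes at 30 mM and 0.391% at 10 mM. Wells of the ethanol and control groups did not overlap, in CPM, for 4.98% of genes at 30 mM, where 0 of the 4 tested members did so, and for 0.894% at 10 mM, where Adora1 did so. At both doses 42 of 12627 genes passed, 22 of them higher at both.

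Markers of cell types moved in the same wells. At 30 mM, 6 of 9 tested mature oligodendrocyte markers rose and 0 fell, and their summed level was 6144 to 10930 CPM against 4981 to 5636 CPM in the controls. The highest sum was that of replicate 1, the well with the most Adora1. At 30 mM 5 of 8 astrocyte markers rose, with sums of 5282 to 6377 CPM against 4032 to 4716 CPM, and 7 of 10 tested markers of mural cells and fibroblasts fell, with sums of 384 to 479 CPM against 852 to 1129 CPM. Of 6 oligodendrocyte precursor markers 1 fell (Cacng4), all 6 having negative values, with sums of 657 to 799 CPM against 797 to 882 CPM. Of 6 tested microglia markers 1 rose (Cx3cr1) and 2 had negative values, with sums of 169 to 283 CPM against 166 to 280 CPM. Of 5 tested neuron markers 1 fell (Stmn2) and 4 had positive values, with sums of 290 to 358 CPM against 283 to 363 CPM. At 10 mM 3 of 9 mature oligodendrocyte markers rose, with sums of 5887 to 6194 CPM against 4830 to 6025 CPM, and 0 of 8 astrocyte markers passed, with sums of 4756 to 5208 CPM against 4720 to 5073 CPM. At this dose 2 of 9 markers of mural cells and fibroblasts fell (Col3a1 and Dcn), and all 9 had negative values. The sums were 565 to 625.2 CPM against 576 to 777 CPM. Of 8 tested microglia markers 1 rose (Cx3cr1), with sums of 2286 to 2670 CPM against 2045 to 2479 CPM. Of 6 tested neuron markers 1 rose (Tubb3) and 1 fell (Stmn2), with sums of 442 to 509 CPM against 434 to 484 CPM. In these bulk samples a change in the number of cells of a type and a change in RNA per cell cannot be told apart, and the part of these markers in the Adora1 result was not tested. Across the 24 wells, as deviations from each group's mean on the log2 scale, Adora1 had a Pearson r of 0.50 with the summed oligodendrocyte markers and 0.14 with the astrocyte markers. Without replicate 1 at 30 mM, over 23 wells, these were 0.18 and 0.43. With the summed endothelial markers, 76.0 to 137 CPM over all wells, r was -0.57 over 24 wells and -0.52 without that well. Of 4 tested endothelial markers 0 passed at 30 mM and 0 at 10 mM. For the remaining lists r over 24 wells was 0.23 (oligodendrocyte precursor), 0.14 (neuron), 0.13 (microglia) and -0.27 (mural cells and fibroblasts).

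Both receptors that raise cyclic AMP were too low to test: neither passed the low-count filter in any comparison. Adora2a (ENSMUSG00000020178) had 0 to 3 counts in every well. Its counts summed over 6 wells were 2 in the controls of experiment 1, 4 at 30 mM, 5 in the controls of experiment 2 and 5 at 10 mM, with exact 95% Poisson intervals that reach from 0.242 to 11.7 over the 4 groups. A difference between groups was not detectable at this depth. Adora2b (ENSMUSG00000018500) had 0 to 10 counts per well. The group sums were 42 counts (95% Poisson interval 30.3 to 56.8) in the controls of experiment 1 and 32 (21.9 to 45.2) at 30 mM, and 19 (11.4 to 29.7) in the controls of experiment 2 and 16 (9.15 to 26.0) at 10 mM. The intervals of ethanol and control sums overlapped in both experiments. Fitted without a filter, Adora2b had log2 fold changes of -0.28 at 30 mM (SE 0.398, edgeR adjusted p = 0.765) and -0.28 at 10 mM (SE 0.516, edgeR adjusted p = 0.884), and a value of 1.04 between the control groups, higher in experiment 1 (SE 0.425, unadjusted p = 0.0145, edgeR adjusted p = 0.0662). The Poisson intervals of the control groups did not overlap as raw counts. They are not scaled for depth (9246949 against 8180438 total counts), so this separation is not a comparison of levels. With a minimum count of 5 the gene was tested between the control groups and passed (log2 fold change 1.02, edgeR adjusted p = 0.0417). Adora3, the remaining receptor of the family, had 21 to 29 counts per group of 6 wells and was not testable either.

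Slc29a1 (ENSMUSG00000023942), the ENT1 transporter, had its lowest levels at 30 mM, but the difference did not pass. The control wells of experiment 1 spread widely, with 11.7 CPM at the lowest, 22.3 at the median and 31.5 at the highest, and the wells at 30 mM had 11.5, 15.1 and 17.7 CPM. All 6 ethanol wells lay below the control median and 1 below the lowest control. The log2 fold change was -0.50 (SE 0.203, unadjusted p = 0.0173, edgeR adjusted p = 0.113), with a 95% interval from -0.90 to -0.11. Without control replicate 5, the lowest of the controls, the value was -0.63 and passed (edgeR adjusted p = 0.0408).

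At 10 mM, Slc29a1 had 23.7, 34.3 and 36.7 CPM (lowest, median, highest) against 21.2, 28.9 and 36.8 CPM in its controls. The groups overlapped almost fully, with a log2 fold change of 0.10 with an SE of 0.138 (edgeR adjusted p = 0.868). The difference between the doses was -0.62 (SE 0.246, edgeR adjusted p = 0.151) and did not pass. The controls of experiment 1 had less Slc29a1 than those of experiment 2, by a log2 fold change of -0.42 with an SE of 0.163 (edgeR adjusted p = 0.0313). Between the control groups 2 of the 4 tested members, Adora1 and Slc29a1, passed, where 43.6% of all genes did. That difference of Slc29a1 did not pass with DESeq2 (adjusted p = 0.0796) or without control replicate 3 or 5 of experiment 1 or 1 or 4 of experiment 2 (values from -0.37 to -0.29).

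Nt5e (ENSMUSG00000032420), which forms adenosine outside the cell, had values in opposite directions at the doses, and neither passed. In experiment 1 the controls had 9.07, 12.1 and 16.0 CPM (lowest, median, highest) and the wells at 30 mM 13.1, 15.8 and 18.8 CPM, with all 6 above the control median and 3 above the highest control. The log2 fold change was 0.35 (SE 0.204, edgeR adjusted p = 0.298). In experiment 2 the controls had 9.21, 15.2 and 18.9 CPM and the wells at 10 mM 10.4, 11.5 and 13.5 CPM, with 0 of 6 above the control median and 0 below the lowest control. The log2 fold change there was -0.34 (SE 0.198, edgeR adjusted p = 0.591). The difference between the doses, 0.68 (SE 0.277, unadjusted p = 0.0169), did not pass either (edgeR adjusted p = 0.172). Of the 4 tested members 0 passed for the difference between the doses, where 3.28% of all genes did. At an unadjusted p under 0.05 Slc29a1 and Nt5e were the 2 that did, and the 3.28% does not apply to this looser threshold. By p they had ranks 1304 and 1439 of 14655 genes, where an unadjusted edgeR p of 0.04095 had rank 2266. Nt5e rests on 13 to 29 counts per well.

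Adk (ENSMUSG00000039197), the enzyme that clears adenosine inside the cell, did not pass in any comparison. The wells at 30 mM had 50.3, 72.6 and 89.1 CPM (lowest, median, highest) against 53.0, 71.4 and 85.5 CPM in the controls, a log2 fold change of 0.02 with an SE of 0.109 (edgeR adjusted p = 0.927) with a 95% interval from -0.19 to 0.24. At 10 mM they had 54.9, 59.0 and 63.5 CPM against 52.9, 61.5 and 72.8 CPM, a log2 fold change of -0.08 with an SE of 0.0943 (edgeR adjusted p = 0.855) with an interval from -0.26 to 0.11. The controls of experiment 1 had 0.20 more Adk on the log2 scale than those of experiment 2 (SE 0.0978, edgeR adjusted p = 0.0939). For each count of Adk there were 1.33 counts of Adora1 in the controls of experiment 1 and 1.65 with 30 mM ethanol, and 1.78 in the untreated wells of experiment 2 and 2.31 with 10 mM, from the counts summed over 6 wells.

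**Figure D3:**
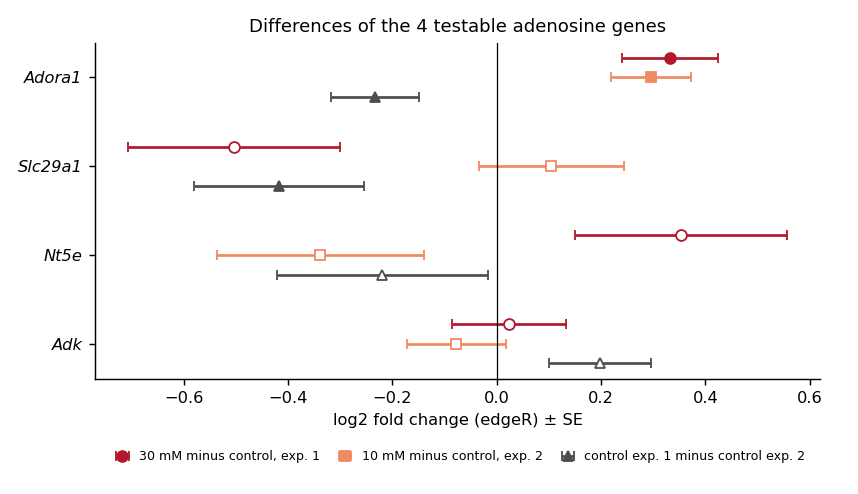
Log2 fold changes of the 4 testable genes at 30 mM, at 10 mM and between the control groups (experiment 1 minus experiment 2), with whiskers of 1 SE; filled symbols passed an adjusted p of 0.05. Adora1 has filled symbols to the right of 0 at both doses, Slc29a1 is left of 0 at 30 mM (-0.50, open) and Nt5e lies on opposite sides at the doses (0.35 and -0.34, both open).

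The wider pathway was read from lists of 80 genes that include the 6 members. At 30 mM, 7 of 53 tested genes passed, 3 higher (Adora1, Gja1 and Adcy8) and 4 lower (Entpd2, P2ry2, Ahcyl1 and Ampd3). Over all genes tested, 9.67% passed, 3.02% higher and 6.65% lower. With DESeq2, 4 of the 7 passed, Adcy8 did not (adjusted p = 0.0737), and Entpd2 and P2ry2 were given no adjusted p. The median log2 fold change of the 53 was 0.03, beside 0.02 for all genes tested. Over all genes 400 rose and 880 fell at 30 mM, and with upper-quartile scaling 551 rose and 697 fell. At 10 mM, Adora1 was the 1 gene of 52 that passed, where 0.657% of all genes did, and 0 fell where 0.266% did. The median was -0.07 beside -0.00 for all genes, and 6 of the 52 had an unadjusted p under 0.05, against 12 of 53 at 30 mM. Over all genes, an unadjusted edgeR p of 0.05035 had rank 3116 of 13235 at 30 mM. At 10 mM unadjusted edgeR p of 0.04326 and 0.05878 had ranks 1212 and 1527 of 13538. Both counts thus lay near the share of all genes.

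Among the enzymes that break down nucleotides outside the cell, 1 of 6 tested passed at 30 mM, where 9.67% of all genes did. Entpd2, an ectonucleotidase that hydrolyses ATP, fell from 8.71 to 15.5 CPM in the controls to 2.96 to 7.36 CPM at 30 mM, with no overlap (log2 fold change -0.92, SE 0.279, edgeR adjusted p = 0.0271). These values rest on 5 to 10 counts per well at 30 mM, and without 30 mM replicate 1 or 3 or control replicate 4 or 5 the gene did not pass (log2 fold changes from -0.91 to -0.77, edgeR adjusted p from 0.0516 to 0.0957). At 10 mM it did not pass the filter, with 63 counts summed over 6 wells against 58. Of the receptors for ATP and related nucleotides, 1 of 8 tested passed at 30 mM, beside the same 9.67% of all genes. P2ry2, a receptor for ATP and UTP, fell from 8.04 to 16.5 CPM to 3.28 to 6.83 CPM, again with no overlap (log2 fold change -1.15, SE 0.275, edgeR adjusted p = 0.00397). It rests on 4 to 11 counts per well at 30 mM. The value of P2ry2 at 10 mM was -0.33 (SE 0.241, edgeR adjusted p = 0.693). The difference between the doses did not pass for either gene (edgeR adjusted p = 0.132 for Entpd2 and 0.214 for P2ry2). Over all genes tested at 30 mM, 4.98% had wells that did not overlap in CPM. Aprt, a pathway gene named after its values were seen, also lay fully below its controls there. Its log2 fold change of -0.12 did not pass (edgeR adjusted p = 0.359).

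Among the enzymes of adenosine and AMP inside the cell, 2 of 19 tested passed at 30 mM, both lower, where 9.67% of all genes passed and 6.65% fell. Ampd3, an AMP deaminase that diverts AMP to IMP, fell from 46.9 to 57.3 CPM in the controls to 32.8 to 47.2 CPM (log2 fold change -0.40, SE 0.113, edgeR adjusted p = 0.0162), with 5 of 6 ethanol wells below the lowest control. Without 30 mM replicate 5 it did not pass (log2 fold change -0.35, edgeR adjusted p = 0.0596). Ahcyl1, a relative of adenosylhomocysteinase that binds inositol trisphosphate receptors, fell from 182 to 204 CPM to 122 to 187 CPM (log2 fold change -0.37, SE 0.0825, edgeR adjusted p = 0.00201). At 10 mM Ahcyl1 had 0.07 (SE 0.0665, edgeR adjusted p = 0.780), and its difference between the doses, -0.45, passed (edgeR adjusted p = 0.00899). Ada, adenosine deaminase, named after its values were seen, had log2 fold changes of -0.53 at 30 mM (SE 0.267, edgeR adjusted p = 0.225) and 0.13 at 10 mM (SE 0.275, edgeR adjusted p = 0.926).

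Gja1, the connexin of astrocyte gap junctions and hemichannels and also 1 of the astrocyte markers above, rose at 30 mM from 129 to 153.5 CPM to 171 to 226 CPM, with all 6 ethanol wells above the controls (log2 fold change 0.51, SE 0.0751, edgeR adjusted p = 3.41e-06). At 10 mM it had 114 to 125 CPM against 109 to 135 CPM in the controls, and its difference between the doses, 0.48, passed (edgeR adjusted p = 0.00287). The part of astrocyte content in the Gja1 result was not tested. Groups without overlap at 30 mM were found for 4.98% of all genes tested. Adcy8, a calcium-stimulated adenylyl cyclase, rose from 12.1 to 16.3 CPM to 14.9 to 30.9 CPM at 30 mM, with overlap (log2 fold change 0.59, SE 0.195, edgeR adjusted p = 0.0461). This call did not hold in 6 of 9 other settings, among them the replicate block (adjusted p = 0.0599), or without any of 8 wells (30 mM replicates 3, 4, 5 and 6 and control replicates 1, 3, 4 and 5), with log2 fold changes from 0.44 to 0.62 and adjusted p from 0.0525 to 0.186. Other cyclases were named after their values were seen. Adcy9 had 0.59 at 30 mM (SE 0.204, edgeR adjusted p = 0.0581). Adcy2, below the filter, had means of 4.20 CPM in the controls and 9.38 CPM at 30 mM. Each passed in 3 of the 9 other settings. Adcy1 and Adcy6 had negative values (-0.14 and -0.07). Of the G proteins through which the receptors signal, Gnai2, an inhibitory alpha subunit, had the highest level of the 16 listed genes, and was named for it after the values were seen, with 644 CPM in the controls of experiment 1, with log2 fold changes of 0.03 at 30 mM (edgeR adjusted p = 0.860) and 0.04 at 10 mM (edgeR adjusted p = 0.856). None of the nucleoside transporters passed at either dose (0 of 4 tested at 30 mM and 0 of 5 at 10 mM, by edgeR), where 9.67% and 0.657% of all genes did. At an unadjusted p under 0.05 Slc29a1 did at 30 mM and Slc28a3, a concentrative transporter named after its values were seen, at 10 mM (log2 fold change -0.46, unadjusted p = 0.00792, edgeR adjusted p = 0.260). By p, Slc29a1 had rank 2027 of 13235 genes at 30 mM and Slc28a3 rank 413 of 13538 at 10 mM.

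**Figure D4:**
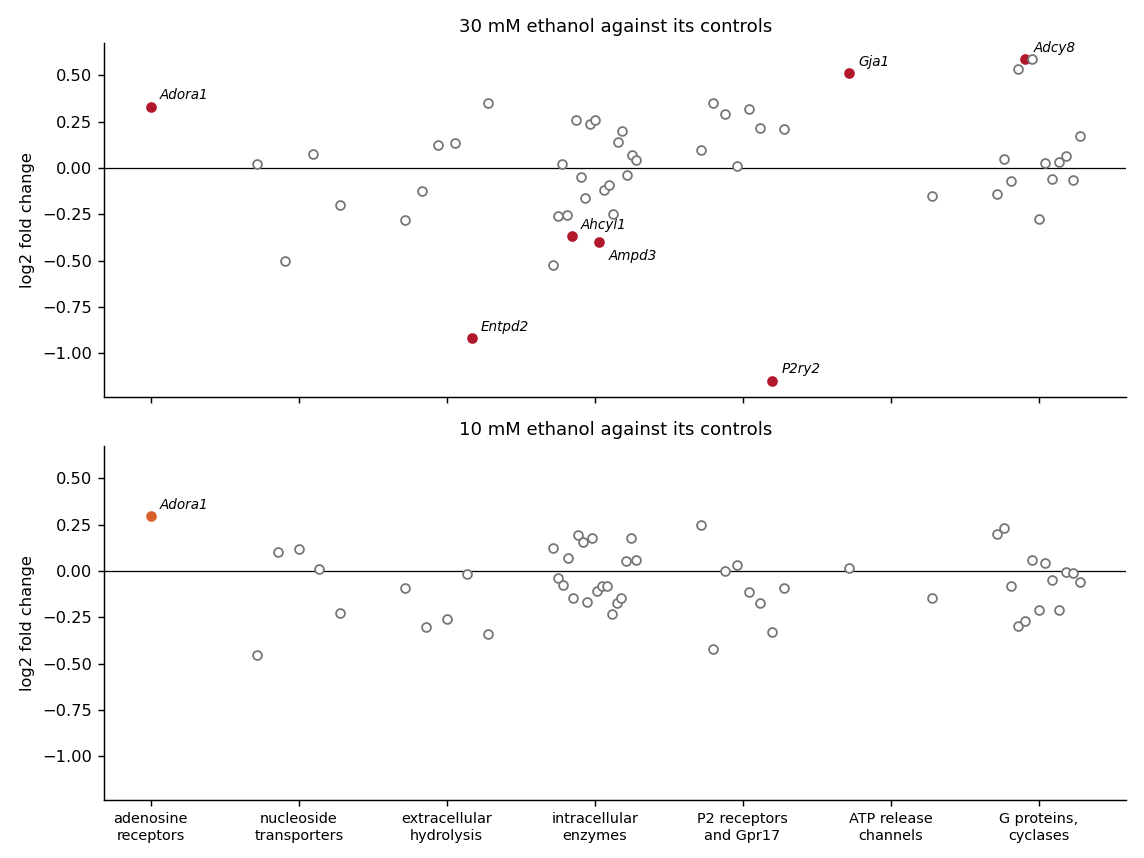
Log2 fold change of each tested gene of the 7 pathway lists at 30 mM (top) and 10 mM (bottom), 1 point per gene; filled and named points passed an adjusted p of 0.05, open points did not. There are 7 filled points at 30 mM, on both sides of 0, and 1, Adora1, at 10 mM.

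The genes whose levels followed a member most closely from well to well were sought among 13500 genes over 24 wells, as deviations from group means. For Adora1 they were Ddr1 (Pearson r = 0.87), which encodes a collagen receptor tyrosine kinase, Fgl2 (0.83) and Rer1 (0.82). Ddr1 did not pass at either dose, with log2 fold changes of 0.08 and 0.13 (edgeR adjusted p = 0.537 and 0.410). For Slc29a1 they were Lonrf2 (0.84), Nav1 (0.80) and Fndc4 (0.75), for Adk Gm43473 (0.85), Klhl31 (0.83) and Scin (0.82), and for Nt5e Wdr83 (0.74), Uevld (0.72) and Gemin2 (0.68). Each is the highest of many values over wells that share libraries and depth. Among the members themselves, Adora1 had r = 0.40 with Slc29a1, -0.32 with Adk and 0.03 with Nt5e.

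By the GENCODE M21 annotation (build GRCm38), the members are protein-coding genes on chromosomes 1 (Adora1), 10 (Adora2a), 11 (Adora2b), 17 (Slc29a1), 14 (Adk) and 9 (Nt5e). Mybph lies opposite Adora1, the antisense gene Gm17080 opposite Slc29a1, and the small RNA gene Gm26372 within Adk. Whether the counting used strand is not stated, but none of these 3 had more than 2 counts in any well.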

How the data were processed

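Raw counts per gene of 24 wells were used as deposited. The authors made these counts from 3′ tag reads. Per the submitters' processing notes, cutadapt 1.18 and STAR were used with build GRCm39. The counter, annotation, strand setting and handling of duplicates are not given in the sources used here. Symbols came from a table that matched 52083 of 55359 identifiers.

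Genes were filtered with filterByExpr (edgeR 4.0.16, minimum count 10) and scaled by TMM, and each experiment was fitted separately with the quasi-likelihood test, 2-sided, with Benjamini-Hochberg adjustment over all genes tested and a threshold of 0.05. The difference between the doses was an interaction over 24 wells. SE was the absolute log2 fold change divided by the square root of F. The 95% limits were derived from it with the normal quantile, and so are somewhat narrower than limits matching the F test. An interval that just excludes 0 can therefore go with an unadjusted p above 0.05. CPM values are counts per total count of the well, without TMM. Likeness was the Pearson correlation of log2 CPM (prior count 2) minus the group mean.

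Named genes were the 6 members, every pathway gene past the threshold at either dose, and the 3 genes most like each testable member, with exceptions stated. Members and lists were chosen with earlier results of these data known. Alternatives used RLE (DESeq2) and upper-quartile scaling, no filter or a minimum count of 5, DESeq2 1.42.0, limma 3.58.1 voom, a joint fit, a replicate block, the total count as covariate, and each well left out. Scripts were tested on simulated counts. Of 60 pairs of wells within groups, none agreed within sampling noise.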

Additional observations from a re-analysis of the deposited data

Results flagged for a closer look

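Of 52 sets of 6 values examined (the members, the pathway genes past the threshold and the total counts, by group), 2 held a well far from the rest of its group, where chance gives about 2.6. In experiment 2, control replicate 5 had 2.27 CPM of Adora2a, against 0 to 0.801 CPM in the other 5 controls; this is 3 counts. In experiment 1, control replicate 5 had 15.5 CPM of Entpd2, the ATP-hydrolysing ectoenzyme, against 8.71 to 11.0 CPM in the other 5 controls.

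Of 57 pathway genes tested for a difference between the doses, 2 passed, where 3.28% of all genes did. Both had also passed at 30 mM. Ahcyl1 had a log2 fold change that was lower at 30 mM than at 10 mM by a difference of -0.45 (SE 0.110, edgeR adjusted p = 0.00899), with all 6 controls of experiment 1 above all 6 of experiment 2. The same held for Slc29a4, Pnp and Ak1, and other pathway genes lay fully below, among them Xdh and P2rx4. The share of all genes separated in this way is not given here, so the separation is not read as particular to these genes. By adjusted p, a different measure, 43.6% of all genes passed between the control groups. Gja1 had a difference of 0.48 (SE 0.106, edgeR adjusted p = 0.00287). Dose and experiment cannot be told apart in either.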

How the results depend on the processing

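Adora1 kept its direction at both doses in every alternative, from 0.25 to 0.44 at 30 mM and from 0.24 to 0.34 at 10 mM. At 10 mM it did not pass with limma voom (0.30) or the joint fit (0.31), where 0 members and 0 pathway genes passed and the joint fit called 21 genes instead of 89; the cause was not tested. Without single wells, the calls at 30 mM ranged over 953 to 1563 genes, 0 to 2 members and 5 to 9 pathway genes, and at 10 mM over 37 to 95 genes, 0 to 1 members and 0 to 1 pathway genes. DESeq2 called 4 pathway genes at 30 mM and gave no adjusted p for Entpd2 and P2ry2. Adcy8 lost its call in 6 of 9 other settings, and Adcy2 (below the filter as reported) and Adcy9 each passed in 3 of them. Without single wells, Adora1 ranged from 0.25 to 0.38 at 30 mM and from 0.24 to 0.34 at 10 mM, and Slc29a1 at 30 mM from -0.63 to -0.36.

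Values near 0 changed sign. Adk at 30 mM was -0.0071 without a filter, -0.0802 with the total count as covariate, and -0.0461 to 0.105 without single wells. The Adora1 difference between the doses was -0.0308 without a filter, -0.0124 with a minimum count of 5, and -0.0795 to 0.0685 without single wells, and the Adk difference was -0.0143 with the covariate, which called 307 genes instead of 481 (329 to 759 without single wells). Between the control groups, 0 members passed without a filter (Adora1 -0.18, Slc29a1 -0.37) or with DESeq2 (-0.23 and -0.42), and 3 passed with a minimum count of 5, the third being Adora2b (1.02); with the covariate Slc29a1 (-0.42) did not pass and Adk (0.28) did. Without single wells 0 to 2 members passed there, with -0.29 to -0.19 for Adora1, -0.55 to -0.29 for Slc29a1 and 0.16 to 0.27 for Adk. The cause was not tested.

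Deviations of same-numbered wells had r from -0.168 to 0.232 in experiment 1 and from -0.04 to 0.04 in experiment 2. Differently numbered wells had r from -0.29 to 0.27 and from -0.17 to 0.12. These values do not show pairing by number, but they cannot exclude it. With a replicate block, 1208 genes passed at 30 mM and 68 at 10 mM, with Adora1 at 0.32 and 0.31, and no member's call changed. Of the pathway genes, Adcy8 was lost at 30 mM (adjusted p = 0.0599), leaving 6. At these depths differences of Adora2a between groups were not detectable. Those of Adora2b between ethanol and control wells were not detected, with SEs of 0.398 at 30 mM and 0.516 at 10 mM when fitted without a filter.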
